A study of Mus musculus with 16 samples.

Results

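The proteins that mark β-catenin (β-cat) for destruction were followed through 10 genes, out of 23284 in the deposited table, in the mouse prefrontal cortex. The members were taken by gene name: the scaffolds Apc, Apc2 and Axin1, the kinases Gsk3a, Gsk3b, Csnk1a1, Csnk1d and Csnk1e, and the ubiquitin ligase receptors Btrc and Fbxw11. All 10 were present in the table and all 10 passed the filter on low values.

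Messenger RNA was sequenced from 16 mice, 4 per genotype, with 1 library per mouse and ages of 2 to 3 months. All mutant lines carried the identical CamKIIα-Cre-93 driver, which acts mainly in forebrain excitatory neurons and is fully active by the third postnatal week, so other cells of the tissue keep the floxed genes. APC cKOs were APC fl/fl, with exons 11 and 12 of Apc floxed. β-cat cOEs were ctnnb1 fl(ex3)/+, so 1 of their Ctnnb1 alleles loses exon 3 and makes a β-cat that resists degradation, with APC intact. APC/β-cat cKOs were APC fl/fl/ctnnb1 fl/fl and carry both genes floxed, so that Cre acts on both in the same cells. The control group held littermates without Cre that came from the different lines. The study asked which effects follow from raised β-cat and which from loss of APC, and the complex is where APC acts on β-cat.

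In cells without a Wnt signal, Axin and APC hold cytoplasmic β-cat together with casein kinase 1 and GSK3. Casein kinase 1 phosphorylates a serine near the amino terminus of β-cat, and GSK3 then phosphorylates the residues upstream of it in turn. The F-box proteins β-TrCP1 (Btrc) and β-TrCP2 (Fbxw11) bind the phosphorylated stretch and hand β-cat to a ubiquitin ligase for breakdown by the proteasome. Several members have other duties in neurons: APC also binds microtubules and synaptic scaffolds, and GSK3 and casein kinase 1 act on many substrates.

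The stretch on which the complex acts is encoded by exon 3 of Ctnnb1, the exon that is floxed in β-cat cOEs, and is shown to give the site that all 10 members serve. In mm10 it lies at chr9:120950522-120950749 on the plus strand, it is fully coding and it covers codons 5 to 81. The sequence is from the GENCODE transcript with the longest coding sequence, 5′ to 3′. The capitals mark codons 33, 37 and 41, whose residues GSK3 phosphorylates, and codon 45, the casein kinase 1 site.
Ctnnb1 exon 3: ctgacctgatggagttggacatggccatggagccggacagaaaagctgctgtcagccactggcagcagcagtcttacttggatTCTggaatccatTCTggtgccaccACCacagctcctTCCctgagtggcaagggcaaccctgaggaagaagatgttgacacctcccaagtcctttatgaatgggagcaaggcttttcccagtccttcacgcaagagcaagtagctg

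The values are FPKM, fragments scaled to the length of the transcript and to the mapped fragments of the library. Levels of different genes are set side by side on this scale, but the transcript lengths behind it are not given in the sources used here. The order and the sums of members rest on those lengths. In controls the members spanned a wide range of levels. Csnk1a1 was highest at 118.5 ± 8.41 FPKM (SD, n = 4), above 94.98% of the 13978 genes tested, and Gsk3a followed at 91.8 ± 2.02 FPKM. Then came Fbxw11 at 45.8 ± 1.31, Apc at 43.9 ± 4.21, Csnk1d at 43.9 ± 2.40, Csnk1e at 34.4 ± 0.98, Gsk3b at 31.5 ± 2.85 and Btrc at 26.2 ± 1.41 FPKM. Apc2, the neuronal relative of Apc, was at 14.5 ± 1.46 FPKM, and Axin1, the scaffold that holds the complex together, was lowest at 7.87 ± 0.40 FPKM. The control ranges overlapped for 4 neighbouring pairs in this order (Fbxw11 with Apc, Apc with Csnk1d, Csnk1e with Gsk3b and Gsk3b with Btrc). Within libraries, Csnk1e was above Gsk3b in 4 of 4 controls, Fbxw11 above Apc and Gsk3b above Btrc in 3 of 4 each, and Apc above Csnk1d in 1 of 4.

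**Figure D1:**
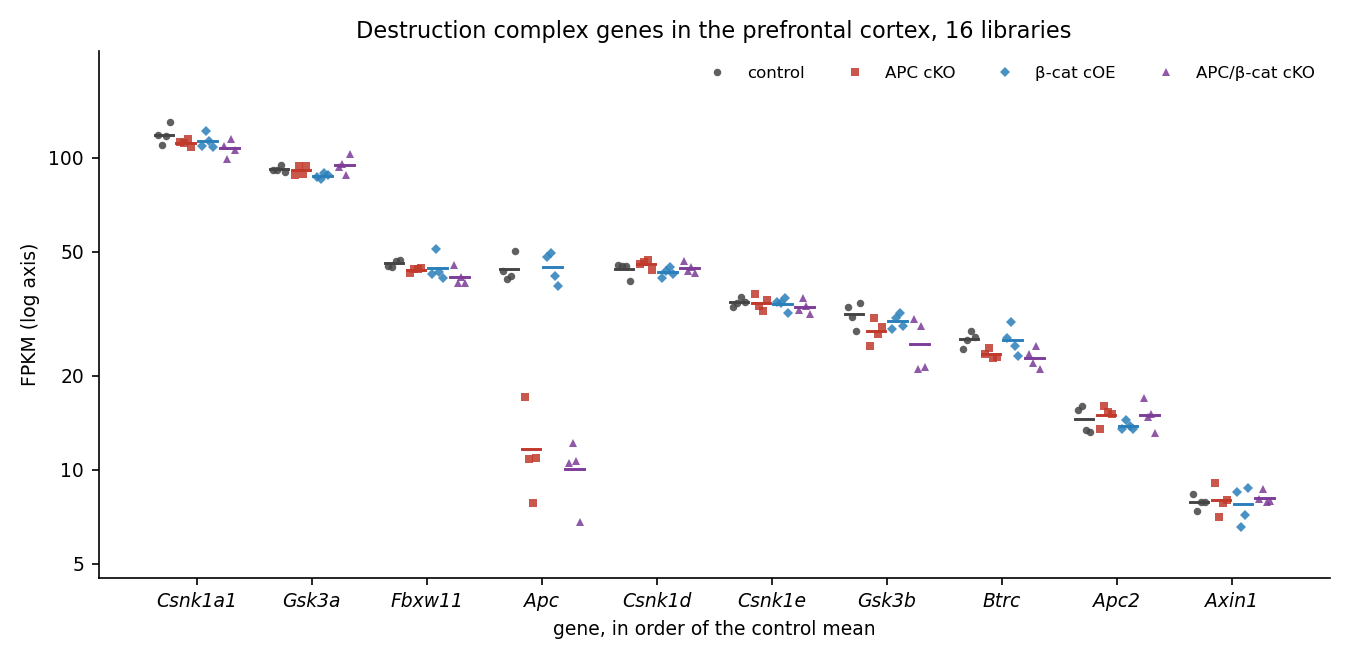
FPKM of each member on a log axis, genes in order of their control mean, with 1 point per library (4 per genotype) and a short line at the mean. Apc sits at 40.8 to 50.1 FPKM in controls and at 6.80 to 17.1 FPKM in the 8 libraries of APC cKOs and APC/β-cat cKOs. The ranges of the other 9 members lie close together across the genotypes, with Gsk3b lowest in 2 of the APC/β-cat cKOs at 21.1 and 21.3 FPKM.

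Some facts of the series touch these values. The depth of the libraries is unknown, since no fragment counts are given, and 5726 to 6649 genes were listed at 0 per library. By Xist and Y-linked genes, control replicate 1 and APC cKO replicate 1 were female and the other 14 libraries male. All 5 excitatory neuron markers (Slc17a7, Camk2a, Neurod6, Tbr1, Neurod2) were present, with summed levels of 1234 to 1318 FPKM in controls, 1199 to 1348 in APC/β-cat cKOs, 1076 to 1365 in APC cKOs and 1174 to 1388 in β-cat cOEs. APC/β-cat cKO replicates 2 and 4 stood apart: the median log2 level of 1854 genes with long transcripts (6000 nucleotides or more) minus that of 2600 genes with short transcripts (under 2000) was -0.24 and -0.46 in them and -0.067 to 0.21 in the other 14 libraries. Changes of members in APC/β-cat cKOs are therefore given with and without these libraries. The tissue content also differed between libraries. Summed striatal neuron markers ran from 58.5 FPKM (β-cat cOE replicate 1) to 374.8 FPKM (APC cKO replicate 3). Summed ependymal and choroid plexus markers ran from 1.82 FPKM (APC cKO replicate 2) to 22.1 FPKM (APC cKO replicate 3). Their part in the values of the members was not tested. Of 8 lists of cell type markers, 0 genes were called in the comparisons of 2 groups. That the mice are separate animals is how the labels read, and the p-values measure the spread between these libraries.

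Of the 10 members, Apc alone passed the test. Against controls, 1 member was called lower in APC cKOs (0.0429% of all genes tested were called), 1 lower in APC/β-cat cKOs (0.207%) and 0 in β-cat cOEs (0.0143%), by limma with an adjusted p under 0.05 over the 13978 genes, and each called member was Apc. At an unadjusted p under 0.05 the counts were 2, 5 and 0 of 10 in this order, where 10%, 14.2% and 5.07% of all genes tested passed. The 5 in APC/β-cat cKOs were all lower than in controls: Apc, Gsk3b, Csnk1a1, Btrc and Fbxw11. Without APC/β-cat cKO replicates 2 and 4 the adjusted counts were again 1, 1 and 0. The changes of Gsk3b, Csnk1a1, Btrc and Fbxw11 were then smaller in size, at -0.088, -0.082, -0.12 and -0.082 (limma adjusted p = 0.9996 each). With all libraries they were -0.33, -0.15, -0.20 and -0.15. The unadjusted count was not taken without these libraries.

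**Figure D2:**
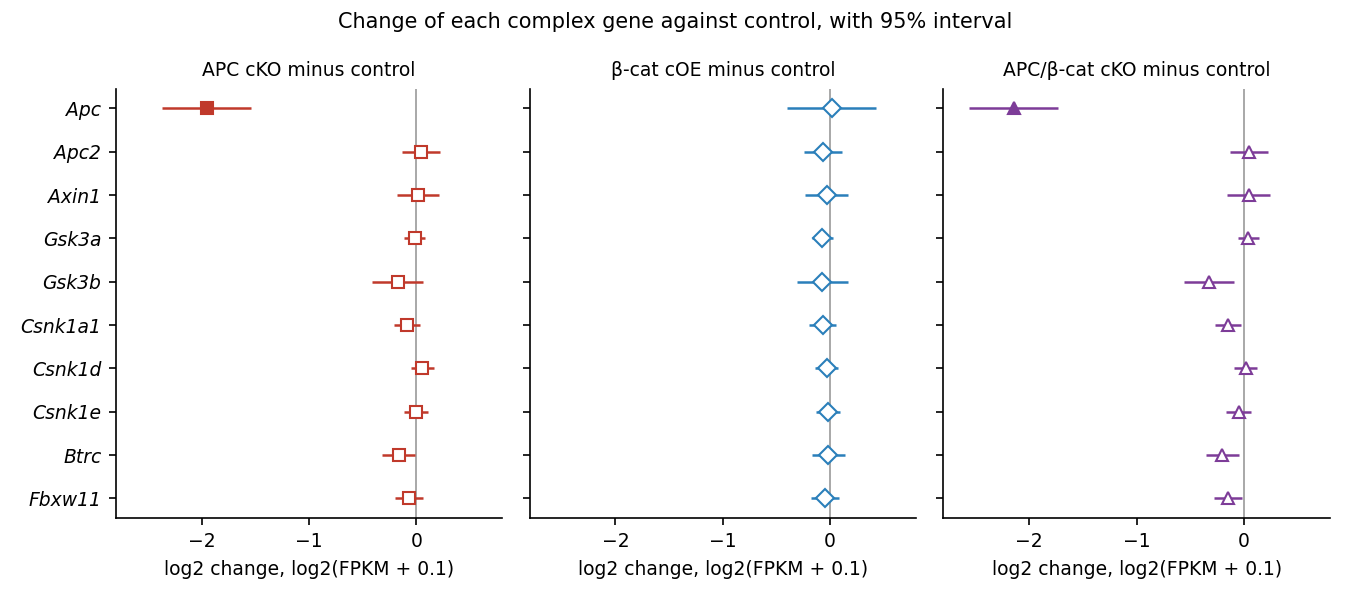
Log2 change of each member against controls in the 3 mutant lines, on the log2(FPKM + 0.1) scale, with the 95% interval of the limma fit; filled symbols passed an adjusted p under 0.05. Apc is at -1.95 in APC cKOs and -2.14 in APC/β-cat cKOs, and the other 9 members lie between -0.33 and 0.057 in all 3 lines.

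Among the scaffolds, Apc lies on chromosome 18 from 34220924 to 34322552. Apc was at 43.2, 40.8, 41.6 and 50.1 FPKM in the 4 controls and at 48.1, 49.5, 41.7 and 38.8 FPKM in the β-cat cOEs. In APC cKOs it was at 17.1, 10.8, 7.85 and 10.9 FPKM, and in APC/β-cat cKOs at 10.5, 12.2, 10.6 and 6.80 FPKM. All 8 libraries of the APC-deleted lines (APC cKOs and APC/β-cat cKOs) were below all 8 of the controls and β-cat cOEs, and the groups did not overlap. The fold change left 25.8% of the control level in APC cKOs (95% interval 19.3% to 34.4%) and 22.6% in APC/β-cat cKOs (17.0% to 30.2%). Without APC/β-cat cKO replicates 2 and 4 the log2 change in that line was -2.04 (limma adjusted p = 6.21e-04). The highest Apc of the APC-deleted lines, 17.1 FPKM, was in the female APC cKO. In bulk tissue, fewer cells that express Apc and less Apc RNA per cell cannot be told apart, and a value per gene says nothing of single exons.

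In β-cat cOEs the log2 change of Apc was 0.017 (95% interval -0.40 to 0.43, limma adjusted p = 0.999), with 3 of 4 libraries within the control range and 1 below it. APC cKOs and β-cat cOEs differed in Apc by -1.97 (adjusted p = 4.26e-04), where 0.0429% of all genes were called and Apc was the 1 member called. At an unadjusted p the count of members in that comparison was also 1, beside 7.57% of all genes. Between APC cKOs and APC/β-cat cKOs the log2 difference of Apc was 0.19 (95% interval -0.23 to 0.60, limma adjusted p = 0.755), and it was -0.011 without APC cKO replicate 1. In that comparison 0 members were called (0.215% of all genes) and 0 passed at an unadjusted p (10.3%). With both APC-deleted lines set against the APC-intact groups, 8 libraries against 8, Apc was lower by 2.06 on the log2 scale (difference -2.06, SE 0.14, adjusted p = 8.96e-07) and had the smallest p of all genes. It was the 1 member of 10 called, where 0.386% of all genes were, and 3 members passed unadjusted (13.3% of all genes). The test of any difference among the 4 genotypes gave 1 member, Apc (0.25% of all genes), and 3 unadjusted (12%).

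Apc2 lies on chromosome 10 from 80295977 to 80318263, and its product shares the β-cat and Axin binding repeats of APC. It was at 15.6, 15.99, 13.4 and 13.2 FPKM in controls, 13.5, 15.9, 15.3 and 15.02 in APC cKOs, 17.0, 14.7, 15.1 and 13.1 in APC/β-cat cKOs and 13.5, 14.4, 13.8 and 13.4 in β-cat cOEs. The groups overlapped. The log2 change was 0.04 in APC cKOs (95% interval -0.13 to 0.22, adjusted p = 0.890). In APC/β-cat cKOs it was 0.04 (95% interval -0.13 to 0.22, limma adjusted p = 0.842). With all 16 libraries, a rise above 0.22 lies outside both intervals. Apc2 made up the smaller part of the pair in controls, where Apc was 75.1% of the summed level, and the larger part in both APC-deleted lines, where Apc was 43.1% and 39.8%. The sum of both genes was 58.5 ± 3.56 FPKM in controls, 26.6 ± 3.06 in APC cKOs, 25.03 ± 3.47 in APC/β-cat cKOs and 58.3 ± 5.38 in β-cat cOEs (SD over 4 libraries each). Without APC/β-cat cKO replicates 2 and 4 the change of Apc2 in that line was 0.15 (limma adjusted p = 0.9996). No interval is given for that fit, so the limit of 0.22 does not carry over to it.

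The third scaffold, Axin1 (chromosome 17, 26138688 to 26195811), is held to be the limiting part of the complex in many cells. It stayed between 6.57 and 9.07 FPKM over the 16 libraries, and its changes against controls were 0.016, -0.032 and 0.045 in APC cKOs, β-cat cOEs and APC/β-cat cKOs, with adjusted p of 0.970, 0.976 and 0.860 by limma. In 16 of 16 libraries it was below 10 FPKM.

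Of the GSK3 pair, Gsk3a (chromosome 7, 25228258 to 25237851) was about 3 times as high as Gsk3b. It was at 91.5, 91.2, 94.7 and 89.9 FPKM in controls and at 86.4, 85.6, 89.4 and 88.0 FPKM in β-cat cOEs. The 4 β-cat cOEs were all below the 4 controls, which 1.62% of all genes tested showed in that direction, and Gsk3a was the only member that did so there. The change was -0.072 (adjusted p = 0.950 by limma), so this separation did not pass the test. In APC cKOs Gsk3a was at 88.1 to 94.0 FPKM and in APC/β-cat cKOs at 87.7 to 102.3 FPKM, and both overlapped the controls. Its spread within genotypes, 0.057 on the log2 scale, was smaller than that of 97.8% of the genes tested (the median gene had 0.15).

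Gsk3b lies on chromosome 16 from 38089001 to 38246084. It was at 33.2, 30.8, 27.7 and 34.1 FPKM in controls, 24.96, 30.7, 27.3 and 28.6 in APC cKOs, 30.3, 21.1, 28.8 and 21.3 in APC/β-cat cKOs and 28.3, 30.7, 31.7 and 28.8 in β-cat cOEs. The lowest values were those of APC/β-cat cKO replicates 2 and 4. The other 2 libraries of that line lay within the control range. Against controls the log2 change in APC/β-cat cKOs was -0.33 (95% interval -0.56 to -0.091, adjusted p = 0.278 by limma, unadjusted under 0.01), the largest change of a member other than Apc. Without replicates 2 and 4 it was -0.088 (adjusted p = 0.9996).

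The longest annotated Gsk3b transcript has 8303 nucleotides, so the gene is among those counted as long. With each genotype centred on its own mean, Gsk3b followed the balance of long and short transcripts in the library with r = 0.91 over 16 libraries, and 0.88 over the 14 without APC/β-cat cKO replicates 2 and 4. These are descriptions, since both values come from the same library. With this balance as a term in the fit the change in APC/β-cat cKOs was -0.068 (adjusted p = 0.999 by limma). Apc has the longest transcript of the members, 12811 nucleotides, and r = 0.42. The part of this balance in the change of Gsk3b was not tested.

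**Figure D3:**
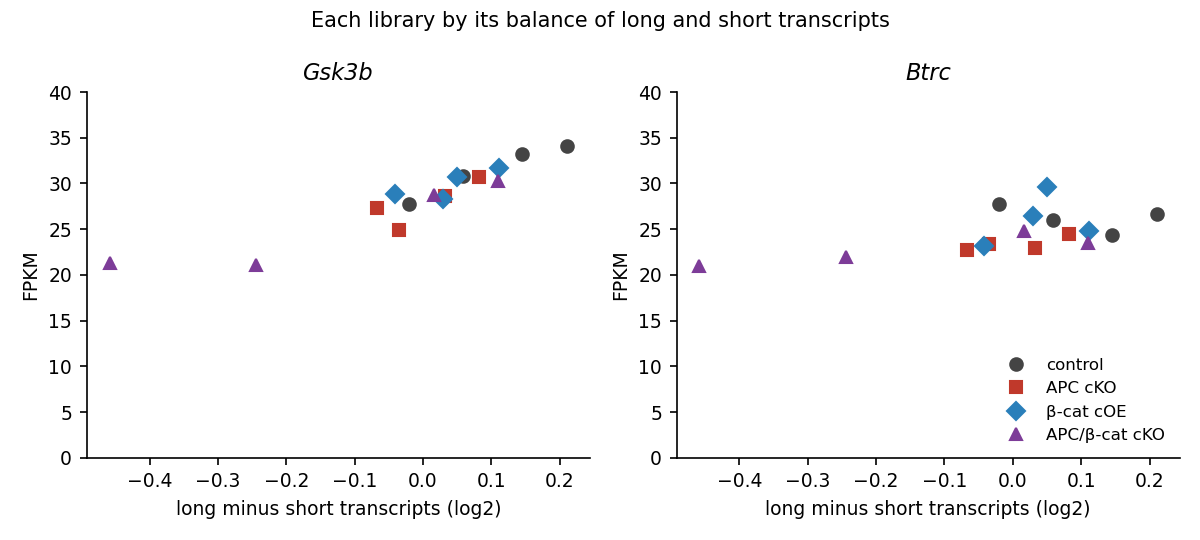
FPKM of Gsk3b (left) and Btrc (right) in each of 16 libraries against the log2 difference of long minus short transcripts. For Gsk3b the points rise from left to right, with APC/β-cat cKO replicates 2 and 4 at 21.1 and 21.3 FPKM on the far left, while for Btrc r was 0.44 over 16 libraries and 0.033 without these 2.

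Of the casein kinase 1 genes, 0 of 3 were called in any comparison. Csnk1a1 (chromosome 18, 61555274 to 61590061), whose product phosphorylates the residue of codon 45, was at 118, 109.5, 117 and 129.8 FPKM in controls and at 109.2, 98.9, 114 and 105.6 FPKM in APC/β-cat cKOs. The groups overlapped, with APC/β-cat cKO replicate 2 lowest. The log2 change was -0.15 (95% interval -0.27 to -0.024, adjusted p = 0.294 by limma, unadjusted under 0.05), and -0.082 without APC/β-cat cKO replicates 2 and 4. In APC cKOs it was at 107.8 to 114.6 FPKM (-0.086) and in β-cat cOEs at 107.7 to 121 FPKM (-0.070).

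Csnk1d (chromosome 11, 120961749 to 120991330) and Csnk1e (chromosome 15, 79417856 to 79455566) encode close relatives that also take part in the circadian clock. Csnk1d stayed between 40.3 and 47.1 FPKM in the 16 libraries and Csnk1e between 31.6 and 36.6. With all libraries, neither reached a change of 0.06 in size on the log2 scale in a comparison with control, and the intervals reached from -0.16 at the lowest to 0.16 at the highest. With 1 library left out the changes of Csnk1d in APC cKOs ranged from 0.017 to 0.079 and those of Csnk1e in APC/β-cat cKOs from -0.082 to -0.026. Their spread within genotypes was smaller than that of 97.0% and 94.4% of genes. Summed, the 3 casein kinase genes gave 196.8 ± 6.56 FPKM in controls, 191.4 ± 3.603 in APC cKOs, 184.6 ± 6.95 in APC/β-cat cKOs and 189.7 ± 7.86 in β-cat cOEs.

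Of the ubiquitin ligase receptors, Btrc lies on chromosome 19 from 45363734 to 45530013. It was at 24.4, 25.99, 27.8 and 26.7 FPKM in controls, 23.4, 24.5, 22.7 and 22.9 in APC cKOs, 23.5, 21.96, 24.8 and 21.02 in APC/β-cat cKOs and 26.4, 29.7, 24.8 and 23.2 in β-cat cOEs. In both APC-deleted lines 3 of 4 libraries were below the lowest control. The same count held for Csnk1a1 and Fbxw11 in APC/β-cat cKOs and for Fbxw11 in β-cat cOEs. The share of all genes with this count was not taken. The change was -0.16 in APC cKOs (95% interval -0.32 to -0.0087, adjusted p = 0.468 by limma), -0.20 in APC/β-cat cKOs (-0.35 to -0.046, adjusted p = 0.281, and -0.12 without replicates 2 and 4) and -0.015 in β-cat cOEs. With both APC-deleted lines against the APC-intact groups it was -0.17, with the smallest p of a member other than Apc, and the limma adjusted p of 0.179 did not pass. Without APC/β-cat cKO replicates 2 and 4 this difference was -0.13 (adjusted p = 0.638).

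Fbxw11 (chromosome 11, 32642724 to 32746816) was at 44.8, 44.5, 46.8 and 47.1 FPKM in controls, 42.7, 44.1, 44.0 and 44.2 in APC cKOs, 45.2, 39.6, 41.4 and 39.5 in APC/β-cat cKOs and 42.4, 50.8, 43.1 and 41.2 in β-cat cOEs. The 4 APC cKOs were all below the 4 controls, as Apc was and as 2.98% of all genes tested were. The gap between the groups was small (44.2 against 44.5 FPKM), and the change of -0.066 had an adjusted p of 0.743 by limma. In APC/β-cat cKOs the change was -0.15 (limma adjusted p = 0.317), and -0.082 without replicates 2 and 4, and the groups overlapped. There only Apc of the 10 members was separated from the controls (2.23% of all genes were separated and lower), and Apc was also the 1 member lower in all 8 libraries of the APC-deleted lines than in all 8 others (0.0715% of all genes). The sum of both receptors was 72.0 ± 2.56 FPKM in controls, 67.1 ± 1.04 in APC cKOs, 64.3 ± 3.85 in APC/β-cat cKOs and 70.4 ± 6.95 in β-cat cOEs.

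Taking the 9 members other than Apc, the median log2 change was -0.013 in APC cKOs, -0.050 in APC/β-cat cKOs and -0.050 in β-cat cOEs, beside -0.0042, 0.0031 and -0.0036 over all genes tested. Without APC/β-cat cKO replicates 2 and 4 the changes of Axin1, Gsk3a, Csnk1d and Csnk1e in that line were 0.017, -0.024, 0.058 and -0.063. The 95% intervals of these 9 members, with all libraries, held 0 for 8 of 9, 5 of 9 and 9 of 9 in the same order. At their widest the intervals left 75.3% to 116% of the control level in APC cKOs, 67.8% to 118% in APC/β-cat cKOs and 80.8% to 112% in β-cat cOEs. These are the widest limits over the 9, and the intervals of the other members lay within them.

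The balance within pairs of related members was set by the ratio of their FPKM within each library, which does not depend on the scaling of that library. The Apc2/Apc ratio was 0.36, 0.39, 0.32 and 0.26 in controls and 0.28, 0.29, 0.33 and 0.35 in β-cat cOEs. It was 0.79, 1.48, 1.95 and 1.37 in APC cKOs and 1.61, 1.203, 1.42 and 1.93 in APC/β-cat cKOs, so Apc2 exceeded Apc in 7 of these 8 libraries. The log2 ratio was higher than in controls by 2.01 in APC cKOs and by 2.20 in APC/β-cat cKOs, with groups that did not overlap (exact two-sided permutation p = 0.0286 each, the smallest that 4 against 4 can give). Adjusted over the 12 ratio tests the p was 0.171. The design fixed this: an adjusted p under 0.05 needs at least 7 of the 12 tests at the smallest p, so the adjusted value says nothing on the 2 ratios that were separated. Apc was deleted by design in both lines, with log2 changes of -1.95 and -2.14, while Apc2 was at 0.04 in each. These 2 ratios therefore restate the loss of Apc and are no separate result. The other 3 ratios had exact p of 0.0857 or more. Gsk3b/Gsk3a differed from controls by -0.16, -0.00009 and -0.37 on the log2 scale in APC cKOs, β-cat cOEs and APC/β-cat cKOs. The 2 lowest Gsk3b/Gsk3a ratios were those of APC/β-cat cKO replicates 2 and 4, and without them the difference in that line was -0.064. Csnk1d/Csnk1e and Fbxw11/Btrc differed by less than 0.1 in every line, and without APC/β-cat cKO replicates 2 and 4 by 0.12 and 0.035 in that line. The Apc2/Apc difference there was then 2.19.

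**Figure D4:**
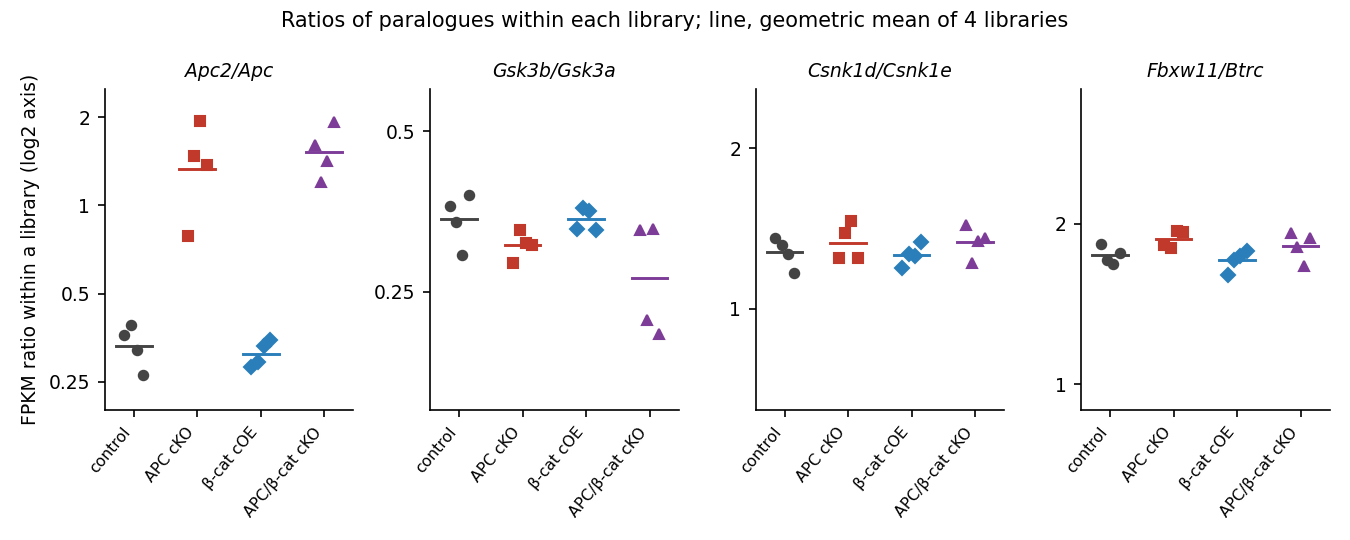
Ratio of FPKM within each library for 4 pairs of related members, on log2 axes that each span a different range, with 1 point per library and a line at the geometric mean. Apc2/Apc is 0.26 to 0.39 in controls and 0.79 to 1.95 in the APC-deleted lines, and each of the other ratios overlaps with controls in every line.

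Members also varied together within genotypes. With each genotype centred on its mean, Btrc and Fbxw11 had r = 0.76 over the 16 libraries and Apc and Csnk1e r = 0.74, the highest of the 45 pairs, and Axin1 and Fbxw11 r = -0.60, the lowest. These pairs share library and scaling, and they are given as a description. The genes most like Apc over the 16 libraries were Pcdhb9 (r = 0.91), F630042J09Rik (0.87), Parvg (0.86), A130022J15Rik (0.85) and Tuba1c (0.85), where r carries the split between APC-deleted and APC-intact libraries. Pcdhb9 is a protocadherin gene that lies, like Apc, on chromosome 18. The genes most like Gsk3b within genotypes were Myo9a (r = 0.98), Gucy1a2 (0.98) and Ltn1 (0.98), and those most like Btrc were Copa (0.88), Gm2011 (0.86) and Zfp146 (0.85).

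The other genes of the pathway were read from 8 lists with 47 genes: further scaffolds, PP2A subunits (the phosphatase that opposes the kinases), the core of the SCF ubiquitin ligase, other casein kinases, Axin turnover, Wnt input to the complex, cytoskeletal partners of APC, and β-cat itself. All 47 were tested, and 0 were called in any of the 7 comparisons by limma, with a lowest adjusted p of 0.129. At an unadjusted p under 0.05 the counts against controls were 3 in APC cKOs (2 higher, 1 lower), 3 in APC/β-cat cKOs (2 higher, 1 lower) and 1 in β-cat cOEs (lower), which is 6.38%, 6.38% and 2.13% of the 47 and below the share of all genes each time. In the PP2A list, Ppp2r5c was lower in APC cKOs (-0.14), Ppp2r1b lower in β-cat cOEs (-0.21), and Ppp2cb and Ppp2r5b higher (0.16 and 0.17) with Ppp2r5e lower (-0.15) in APC/β-cat cKOs, all unadjusted.

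**Figure D5:**
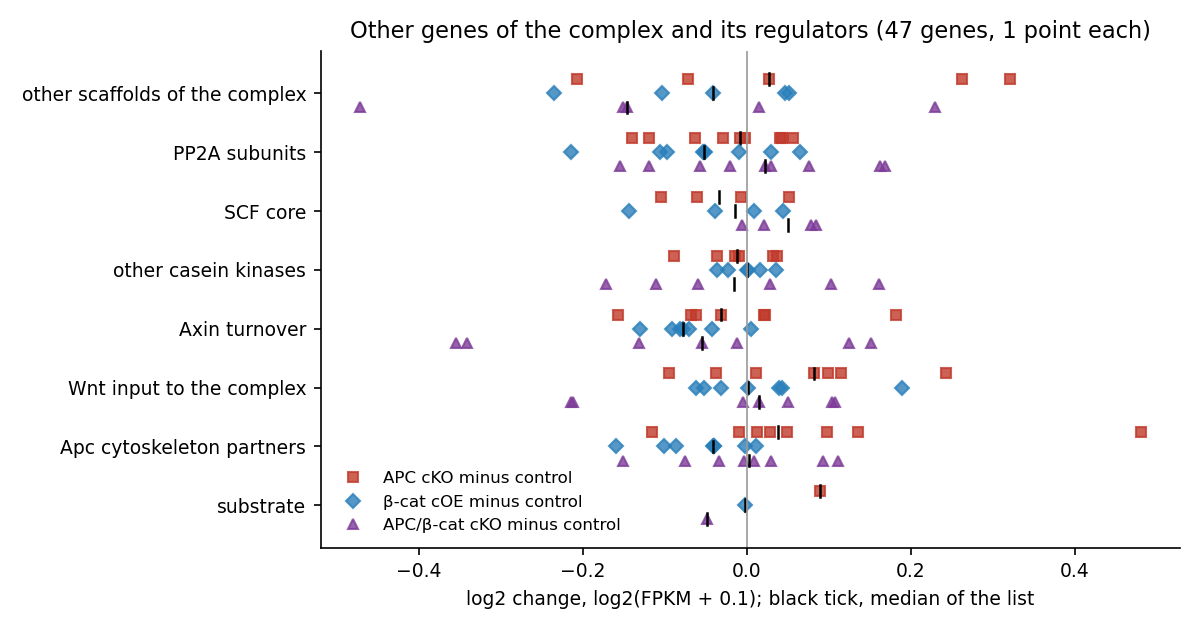
Log2 change against controls of the 47 other pathway genes, 1 point per gene and line, by list, with a black tick at the median of each list. The points scatter on both sides of 0, and the largest positive value, Spata13 in APC cKOs at 0.48, had an adjusted p of 0.474.

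Axin2, the inducible relative of Axin1 and a known transcriptional target of β-cat, had the lowest p of the 47. It was at 6.26, 4.75, 5.81 and 6.01 FPKM in controls, 8.40, 6.03, 7.65 and 6.61 in APC cKOs, 5.02, 5.25, 5.70 and 4.52 in APC/β-cat cKOs and 5.33, 5.75, 5.91 and 6.63 in β-cat cOEs. All 4 APC cKOs were above all 4 APC/β-cat cKOs, but the share of all genes separated in this way was not taken, so the separation cannot be weighed. The difference between these lines was 0.47 (95% interval 0.23 to 0.71), which did not pass adjustment (adjusted p = 0.129 by limma). Against controls the change was 0.32 in APC cKOs (adjusted p = 0.371), -0.15 in APC/β-cat cKOs (0.555) and 0.052 in β-cat cOEs (0.974).

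Ctnnb1, the substrate, was at 160 ± 4.54 FPKM in controls, 170 ± 10.8 in APC cKOs, 155 ± 2.55 in APC/β-cat cKOs and 160 ± 4.43 in β-cat cOEs (SD over 4 libraries each). In APC/β-cat cKOs, in which Ctnnb1 is floxed, the gene value stood at 96.7% of control (95% interval 90.4% to 103%, limma adjusted p = 0.643), and the groups overlapped. A value per gene does not show whether the floxed exons 2 to 6, 27.2% of the transcript, are lost in the cells with Cre. By immunoblot the paper reports β-cat protein much reduced in this line and raised in APC cKOs and β-cat cOEs. In β-cat cOEs the log2 change was -0.0016 (limma adjusted p = 0.999), and APC cKOs had 0.090 (limma adjusted p = 0.532). Ctnnb1 was 0.14 higher on the log2 scale in APC cKOs than in APC/β-cat cKOs (adjusted p = 0.295 by limma). In the same comparison all 5 oligodendrocyte markers (Mbp, Mog, Mag, Mobp, Cnp) were lower in APC cKOs at an unadjusted p, with summed levels of 354 to 435 FPKM in APC cKOs, 525 to 634 in APC/β-cat cKOs and 414 to 577 in controls. None of the 5 was at 0. Their part in the values of Axin2 and Ctnnb1 was not tested.

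With both APC-deleted lines against the APC-intact groups, Mcc, a gene known from its mutation in colorectal cancers, was higher by 0.36 (adjusted p = 0.247 by limma), at 1.19 to 2.16 FPKM in controls, 1.69 to 2.26 in APC cKOs, 1.47 to 2.21 in APC/β-cat cKOs and 1.15 to 1.64 in β-cat cOEs. Ppp2cb, a catalytic subunit of PP2A, was higher by 0.14 (limma adjusted p = 0.196), with 65.6 to 69.99 FPKM in controls and 67.5 to 83.9 in APC/β-cat cKOs. APC/β-cat cKO replicates 2 and 4 were at 75.8 and 83.9 FPKM, and replicates 1 and 3 at 67.5 and 76.5 FPKM. Mcc and Ppp2cb both overlapped between the groups, and neither passed the test.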

How the data were processed

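Prefrontal cortex RNA of 16 mice was sequenced by the authors as paired-end reads from stranded mRNA libraries. Per the labels and the study's methods, reads were mapped with TopHat2 2.0.10 to mm10, and FPKM came from Cufflinks and Cuffdiff 2.1.1. The gene annotation is not given in the sources used here. The deposited values are on a log scale of unstated base and were read as log2(FPKM + 1): FPKM times transcript length in kilobases then summed to 1087094 to 1155332 per library, while natural logs gave 9187475 or more. They were turned back to FPKM, so the test fixed for FPKM was kept. The confidence and status columns are empty.

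limma 3.58.1 (R 4.3.3; lmFit, contrasts.fit, eBayes with trend) was run on log2(FPKM + 0.1) for 13978 genes (mean over the libraries of 0.5 FPKM or more), in 1 model of the 4 genotypes with 12 residual degrees of freedom, Benjamini-Hochberg adjusted, and was tested on simulated data. The 3 comparisons with control share the controls. Changes of low genes are understated on this scale. Ratios were compared by exact permutation (Python 3.11.15, scipy 1.17.1). Positions, transcripts and exon 3 are from GENCODE on mm10. For each member the transcript with the longest coding sequence was searched in runs of 50 bases. Of these, 1.49% of the Gsk3a transcript and 0.34% of the Apc transcript were found in other genes, and none of the other 8. For Gsk3b that transcript has 1750 nucleotides. Longer transcripts of members, such as that of Gsk3b with 8303 nucleotides, were not searched. Genes on the other strand overlap 8 of the 10 members, and whether counting used the strand is not given in the sources used here.

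The members and lists were chosen with earlier results of these data known. Named are all members, Ctnnb1, Axin2, pathway genes with an adjusted p under 0.05 or an unadjusted p under 0.01 in any comparison, and the genes most like Apc (5), Gsk3b and Btrc (3 each). Ppp2r5c, Ppp2r1b, Ppp2r5b, Ppp2r5e and Spata13 were named after their values were seen. From the cell type marker lists 2 genes are not reported here. Replicates are numbered in accession order, so a shared number was not taken as a pairing. The numbers in the column names run in sets that hold each genotype once, and nothing says what these sets are. Alternatives were other pseudocounts (1 and 0.01), no filter or 2 FPKM, quantile and median-of-ratios scaling, no trend, array weights, sex, only the groups compared, other thresholds, each library left out, and a replicate block by title number. A block by column number, the balance of long and short transcripts as a term, and leaving out APC/β-cat cKO replicates 2 and 4 (changes and ratios) were added after seeing the data.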

Additional observations from a re-analysis of the deposited data

Results flagged for a closer look

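In the 40 sets of 4 libraries (10 members, 4 genotypes), the gap of the end library to its neighbour, as a share of the whole range, passed Dixon's critical value for 4 samples in 2, and chance gives about 2 of 40. Csnk1d was lowest in control replicate 4 (40.3 FPKM against 44.9 to 45.2 in the others), with a share of 0.952. Fbxw11 was lowest in APC cKO replicate 1 (42.7 FPKM against 44.0 to 44.2), with a share of 0.834.

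The change of Apc against controls differed between APC cKOs and β-cat cOEs by -1.97 on the log2 scale (limma adjusted p = 4.26e-04), with all 4 APC cKOs below all 4 β-cat cOEs. The share of all genes separated between these lines was not taken, so the separation cannot be weighed.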

How the results depend on the processing

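Every alternative kept the adjusted call of Apc and called 0 other members. At an unadjusted p under 0.05 the counts of members rose from 1 to 2 in APC cKOs, to 5 in APC/β-cat cKOs, to 3 for the APC-deleted lines and to 3 for any difference. Of 840 member changes under other settings 24 turned sign, and of 960 with 1 library left out 37 did. None of these member changes had passed the test, and the cause was not tested.

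Values after such turns were, under quantile scaling, 0.015 for Gsk3a and 0.027 for Csnk1e in APC cKOs, 0.011 for Csnk1e in β-cat cOEs and 0.0012 for Apc2 between APC cKOs and APC/β-cat cKOs. Under median-of-ratios scaling they were 0.0027 for Csnk1e in APC cKOs and 0.0082 for Apc2 between these lines. With array weights they were -0.022 for Gsk3a in APC/β-cat cKOs, and 0.010 for Gsk3a and -0.030 for Btrc between these lines. With sex as a term they were 0.014 for Axin1 in β-cat cOEs and 0.0051 for Apc2 between these lines. With the balance of long and short transcripts they were -0.000273 for Axin1 in APC cKOs, 0.0037 for Btrc in β-cat cOEs, -0.015 for Gsk3a in APC/β-cat cKOs, and -0.00352 for Gsk3b and -0.00826 for Btrc between these lines. Without APC/β-cat cKO replicates 2 and 4 they were -0.024 for Gsk3a in APC/β-cat cKOs, and 0.011 for Gsk3a, -0.086 for Gsk3b, -0.0040 for Csnk1a1, -0.0013 for Csnk1d and -0.047 for Btrc between these lines. The Gsk3b/Gsk3a ratio in β-cat cOEs was 0.00130 with a pseudocount of 1.

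The deviations showed no clear pairing by title number: same-numbered libraries had a median r of -0.069, and 4 of 21 pairs were above 0.1. Pairs with different numbers had a median r of 0.0053, with 13 of 75 above 0.1. The highest r, 0.32, was of a same-numbered pair. As a replicate block the title numbers gave -0.0029 for Axin1 in APC cKOs and 0.0090 for Csnk1a1 between APC cKOs and β-cat cOEs. The counts of members stayed at 1, 0 and 1 against controls. For all genes the block by title number gave 7 calls in place of 54 for the APC-deleted lines.

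With 1 library left out, changes against controls that turned sign ranged in APC cKOs from -0.046 to 0.074 (Axin1), -0.029 to 0.0025 (Gsk3a), -0.037 to 0.026 (Csnk1e) and -0.0020 to 0.090 (Apc2). In β-cat cOEs they ranged from -0.036 to 0.081 (Apc), -0.038 to 0.015 (Csnk1e), -0.080 to 0.038 (Btrc), -0.092 to 0.043 (Axin1), and in APC/β-cat cKOs from -0.019 to 0.10 (Apc2) and -0.024 to 0.033 (Csnk1d). Between APC cKOs and APC/β-cat cKOs they ranged from -0.011 to 0.36 (Apc), -0.062 to 0.061 (Apc2), -0.091 to 0.029 (Axin1) and -0.0012 to 0.079 (Btrc). Between APC cKOs and β-cat cOEs they ranged from -0.027 to 0.11 (Axin1), -0.020 to 0.042 (Csnk1e), -0.038 to 0.019 (Csnk1a1) and -0.049 to 0.050 (Fbxw11). In β-cat cOEs the log2 ratios ranged from -0.074 to 0.051 (Gsk3b/Gsk3a) and -0.058 to 0.013 (Csnk1d/Csnk1e).

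Leaving aside the other thresholds of p and the fits without 1 library, all genes gave 2 to 13 calls in APC cKOs (6 in the fit reported). They gave 8 to 55 in APC/β-cat cKOs (29) and 1 to 3 in β-cat cOEs (2). Between APC cKOs and APC/β-cat cKOs the range was 6 to 58 (30), and between APC cKOs and β-cat cOEs 1 to 10 (6). For the APC-deleted lines it was 7 to 130 (54), and for any difference 12 to 82 (35). This background also rests on single libraries: without control replicate 1 it was 43, 56 and 143 genes for APC cKOs, APC/β-cat cKOs and the APC-deleted lines, in place of 6, 29 and 54. At the low end it was 3 for APC cKOs and 16 for the APC-deleted lines without control replicate 3, and 10 for APC/β-cat cKOs without APC/β-cat cKO replicate 2. Depth is unknown, so its limit on the low members cannot be given.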
